A study of Homo sapiens with 3 samples.

Results

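The nuclear genes of oxidative phosphorylation were examined on arrays of HepG2 cells, an established human hepatocellular carcinoma line, treated with etoposide. Genes were taken by name, as those whose symbol on the array starts with NDUF, UQCR, ATP5 or COX4 to COX8, together with SDHA, SDHB, SDHC, SDHD and CYC1. This rule found 91 of the 27274 gene names on the array. It found 41 genes of complex I, 4 of complex II, 8 of complex III, 19 of complex IV and 16 of complex V. These counts include isoforms, copies and the assembly factors named NDUFAF. The other 3 (ATP5S, ATP5SL and COX4NB) carry the prefix but do not encode subunits of these complexes. Each of 3 conditions had 1 array: untreated control cells, cells given 10 μM etoposide (the low dose) and cells given 100 μM etoposide (the high dose), all for 30 h. Etoposide traps topoisomerase II on DNA and leaves double-strand breaks. The study used the low dose to induce senescence and the high dose to induce apoptosis, and compared genes between the 2. All cells were of the same line with wild-type p53. The labels call the control untreated, whereas the study names its control for the array comparison DMSO, and the difference was not resolved here. Since each condition had 1 array, the fold changes below describe these arrays, without replicates and without p-values.

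Oxidative phosphorylation takes place in the inner mitochondrial membrane. Complex I takes electrons from NADH and complex II from succinate, complex III passes them to cytochrome c, and complex IV reduces oxygen, while complexes I, III and IV pump protons. Complex V, the ATP synthase, lets the protons return through its Fo part and makes ATP in its F1 part. Complex II is encoded entirely by nuclear genes, whereas the other complexes also contain subunits encoded by mitochondrial DNA, so their assembly needs both genomes. The liver is rich in mitochondria, and its cells draw on them for urea, glucose and ketone body synthesis as well as for ATP.

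Many of these genes share promoter elements bound by NRF1 (nuclear respiratory factor 1), by GABP, an ETS family protein, and by YY1. Promoters of 300 bases (250 before the start and 50 after) were available from RefSeq on GRCh38.p14 for 74 of the 91 genes. The letters CGCATGCG or GCGCANGCG, which form the core of the NRF1 element and overlap each other in part, were found on either strand in 21 of the 74 promoters (28.4%), compared with 8.11% of all 27305 promoters. CCGGAAG, the ETS core, was found in 28.4% compared with 2913 of the 27305, and AAGATGGCG, the YY1 element, in 10.8% compared with 1.85%. CCAAT, the NF-Y box, was found in 33.8% compared with 35.7%. At least 1 of the first 3 elements was present in 54.1% of the members' promoters and in 18.4% of all promoters. To show the shared element next to genes at both ends of the high-dose range, the 150 bases before the start are printed for the 2 lowest and the 2 highest members, by fold change at the high dose, among those with an NRF1 core in this window and 1 listed start. Capitals mark the NRF1 core, and in UQCR (now UQCR11) also the ETS core, once in each orientation.
NDUFS7, chr19:1383757-1383906, plus strand: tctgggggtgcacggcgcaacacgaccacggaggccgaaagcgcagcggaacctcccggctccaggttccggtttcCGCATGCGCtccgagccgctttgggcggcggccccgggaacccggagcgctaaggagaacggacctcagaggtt
ATP5C1 (now ATP5F1C), chr10:7788027-7788176, plus strand: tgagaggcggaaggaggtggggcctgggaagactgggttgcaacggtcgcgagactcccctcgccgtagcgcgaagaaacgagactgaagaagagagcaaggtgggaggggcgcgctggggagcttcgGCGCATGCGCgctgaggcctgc
NDUFA3, chr19:54102705-54102854, plus strand: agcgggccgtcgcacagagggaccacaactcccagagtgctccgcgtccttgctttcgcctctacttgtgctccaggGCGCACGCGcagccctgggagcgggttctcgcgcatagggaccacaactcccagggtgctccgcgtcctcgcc
UQCR, chr19:1605463-1605612, minus strand: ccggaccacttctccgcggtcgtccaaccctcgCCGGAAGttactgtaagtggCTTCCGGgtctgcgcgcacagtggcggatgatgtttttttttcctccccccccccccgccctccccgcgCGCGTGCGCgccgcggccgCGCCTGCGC
After high-dose treatment, the fold changes of these 4 genes were 0.675, 0.794, 1.30 and 1.33. The median log2 fold changes of the 20 measured members with an NRF1 core in the 300 bases were -0.135 and -0.070 with the low and high dose, and those of the 51 without were -0.046 and 0.034. For the 21 members with an ETS core they were -0.046 and 0.063, and for the 50 without -0.065 and 0.001. The 8 members with a YY1 element had medians of -0.180 and -0.115, and the 63 without -0.057 and 0.023. For the 24 with a CCAAT box they were -0.050 and 0.050, and for the 47 without -0.069 and -0.042. These are descriptions of letters in a window, and no binding was measured.

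The arrays showed a bright and even set of genes. Of the 91 members, 86 were well above background on all 3 arrays, as were 15178 genes in all. Their median signal in control cells was 13320, compared with 501.9 for all measured genes. Signals are the deposited spot intensities after background subtraction, before scaling, and for each gene the brightest probe of 60 bases was used. The 5 members that were not measured were all isoforms of complex IV subunits or of an associated subunit used mainly in other tissues, and they are described with complex IV. The array as a whole gave similar numbers in the 3 conditions, with 20114, 19836 and 20151 probes well above background. The 75th percentile of the signal was 514 (control), 536.4 (low dose) and 432.3 (high dose), and fold changes were computed after dividing by it. All 9 markers of liver-like cells checked (ALB, AFP, APOA1, APOB, TTR, SERPINA1, TF, FGB and HNF4A) were measured. Among the markers of other cell types given here, COL1A1 and COL3A1 were not well above background, and PTPRC, CD3E, PECAM1 and CDH5 were measured at signals from 34.6 to 472.8.

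At the low dose, none of the 86 measured members was more than 1.5-fold higher or lower than in control cells, whereas 7.58% of all measured genes were more than 1.5-fold higher and 5.42% lower. Since members are bright, the share was also taken over the 5345 genes with a mean signal of 1000 or more, which held 84 of the members. It was 5.48% higher and 3.63% lower. At the high dose, 1 member (COX6A2) was more than 1.5-fold higher and 2 (NDUFAF4 and ATP5S) were more than 1.5-fold lower, compared with 15.2% and 9.49% of all genes and with 8.98% and 10.9% of the bright genes. The number lower was 7 without scaling between arrays, 9 with median scaling and 4 with spike-in scaling. For the low dose over the high dose, no member was more than 1.5-fold higher and COX6A2 was lower, against 6.85% and 11.4% of all genes and 7.3% and 5.31% of the bright genes. In bulk RNA, less RNA per cell and fewer cells of a kind cannot be told apart, and the arrays give abundance relative to the other RNAs of the sample.

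The spread of the members was narrower than that of all genes in each comparison. Between the 25th and the 75th percentile, their log2 fold changes spanned 0.234 at the low dose, compared with 0.434 over all genes and 0.371 over bright genes. At the high dose the span was 0.417, compared with 0.640 and 0.586. For the low over the high dose it was 0.219, compared with 0.503 and 0.418. Within 0.32 of 0 on the log2 scale lay 86% of members at the low dose, 65.4% of all genes and 71.9% of bright genes. At the high dose these shares were 80.2%, 49.1% and 54%. In all 3 comparisons together, 63 members stayed within this limit, a count that was not taken over all genes. The spread was wider than the noise of the spots. The median SD of a member's ratio, estimated from repeated spots on the same arrays, was 0.073 on the log2 scale. This is below the members' spans of 0.234 and 0.417 at the low and high dose. That SD covers spots on 1 array and not cultures. At the high dose 57 members lay more than 2 such SDs from 0, and at the low dose 43. Those counts were not taken over all genes or bright genes. Distance from 0 also depends on the scaling between arrays, so the counts are not read as a trait of the members.

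**Figure D1:**
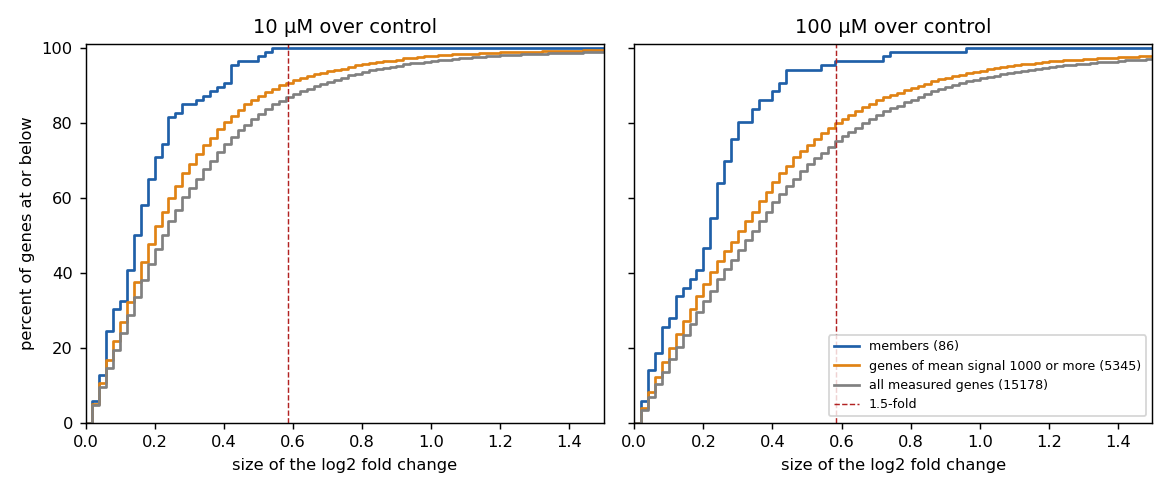
Percent of genes (vertical axis) whose log2 fold change over control, in either direction, was at most the size on the horizontal axis, for the 86 members, the 5345 genes of mean signal 1000 or more and the 15178 measured genes. The line of the members lies above both others over most of the range, and at the dashed 1.5-fold line it has reached 100% at 10 μM while 3 members lie beyond it at 100 μM.

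The median of the members lay close to that of all genes. The median log2 fold change was -0.068 at the low dose, compared with -0.034 over all genes and -0.046 over bright genes. At the high dose it was 0.028, below the 0.078 of all genes but above the -0.020 of bright genes. At the low dose 55 of 86 members were lower than control by any amount (64%), compared with 54.5% of all genes and 56.4% of bright genes. With the high dose 39 of 86 were lower (45.3%), compared with 43.2% and 52%. The sign at the high dose depended on the scaling between arrays. Without scaling, the high-dose median of all genes dropped by 0.25 on the log2 scale and 72 of 86 members (83.7%) were below control at the high dose, with median scaling 76 (88.4%), and with scaling to the spike-in controls 60 (69.8%). The corresponding shares of all genes were 64.1%, 67% and 58%. Relative to all genes the members' median was at -0.033 and -0.050 with the low and high dose. A scaling by 1 factor per array cannot change this difference. Under settings that can, it ran at the high dose from -0.313 with no filter on dim probes to 0.067 with cyclic loess. Both doses were compared with the same control array, and their values for a gene are given side by side. There were 36 members lower at both doses, 28 higher at both, 19 lower at the low and higher at the high dose, and 3 the other way. The same counts were not taken over all genes. They rest on the shared control array and on the scaling, and are not read as a trait of the members.

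**Figure D2:**
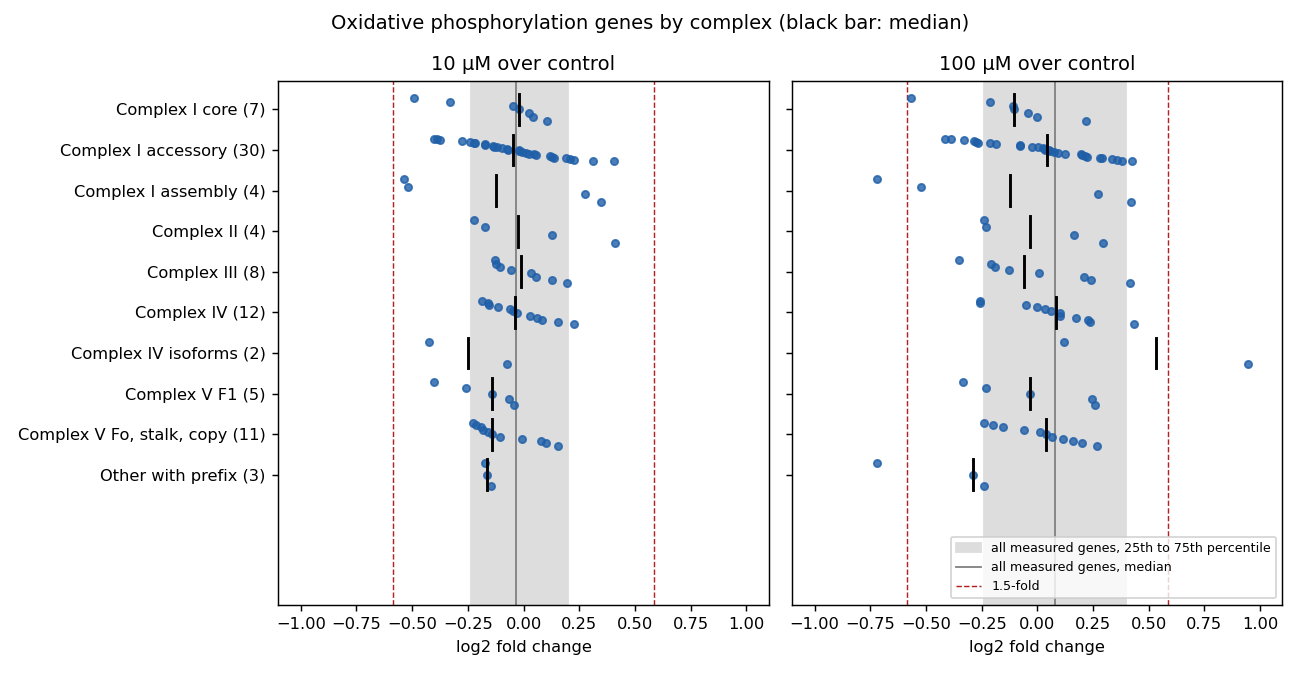
Log2 fold change over control for each of the 86 measured members (points), by complex and role, with the number of genes in brackets, the median of each class as a black bar, and the median and the 25th to 75th percentile of all measured genes in grey. Most points lie inside the dashed 1.5-fold lines, with 3 points beyond them at 100 μM and none at 10 μM.

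The 7 core subunits of complex I encoded in the nucleus carry the flavin and the iron-sulfur clusters that pass electrons from NADH. NDUFS7, which holds the last cluster before ubiquinone, was the lowest of them at both doses. Its signal was 2131, 1582 and 1209 in control, low-dose and high-dose cells, or 0.712-fold and 0.675-fold of control after scaling. Its probe matches chr19:1344247-1344306 of hg18. In 4 of 14 settings of the processing it passed 1.5-fold at the high dose. The other core subunits lay closer to control. NDUFS1, the largest subunit of the complex, gave 9916, 10020 and 8102 (0.969-fold and 0.972-fold). NDUFS3 gave 6541, 7037 and 5111, or 1.03-fold and 0.929-fold. NDUFV1, which binds FMN and NADH, and NDUFV2 were at 0.927-fold and 0.998-fold at the high dose. NDUFS8 was the highest core subunit, with signals of 11000, 12340 and 10750, or 1.08-fold and 1.16-fold of control. Of the 7, 6 were lower than control at the high dose (85.7%), compared with 43.2% of all genes and 52% of bright genes. The median of the 7 was -0.106. At the low dose 4 were lower (57.1%), compared with 54.5% and 56.4%, and the median was -0.019. The high-dose log2 values of NDUFS1 (-0.042) and NDUFV2 (-0.003) lay within their spot-to-spot SDs of 0.074 and 0.075. Both genes were above control at the high dose in some settings of the processing.

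The 30 accessory subunits of complex I, which surround the core and are needed for its assembly and stability, spread to both sides of control. At the low dose the extremes were NDUFV3, the small flavoprotein subunit, and NDUFC2, an accessory subunit of the membrane arm. NDUFV3 gave 5066, 6997 and 4874, or 1.32-fold at the low and 1.14-fold at the high dose, so that it was highest at the low dose. NDUFC2 gave 25130, 19820 and 16830, or 0.756-fold and 0.796-fold. At the high dose the highest was NDUFB10, with signals of 7140, 7588 and 8059 and a fold change of 1.34, compared with 1.02 at the low dose. The lowest was NDUFB6, with signals of 5061, 4477 and 3197 and a fold change of 0.751. NDUFB10 thus had its highest signal and NDUFB6 its lowest on the high-dose array. NDUFB7 and NDUFB10 were the furthest below their high-dose level on the low-dose array among complex I genes, each with a log2 ratio of -0.398. NDUFS4, a late-assembled subunit, was at 0.77-fold and 0.764-fold, close to NDUFC1 at the low dose (0.764-fold). The median log2 fold changes of the accessory subunits were -0.045 and 0.043 with the low and high dose, and those of all 37 complex I subunits -0.022 and 0.023.

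The 4 assembly factors of complex I that carry its prefix were split. NDUFAF4, which acts early in assembly, was the lowest of all measured members at both doses. Its signals were 1521, 1096 and 775.8, or 0.690-fold and 0.606-fold of control. The high-dose log2 value of -0.72 had a spot-to-spot SD of 0.079. Its probe matches chr6:97445906-97445965 of hg18. NDUFAF2, which works late in assembly, gave 3232, 2353 and 1892, or 0.698-fold and 0.696-fold. In contrast, NDUFAF1, a component of the complex that assembles the membrane arm, gave 1417, 1881 and 1596, or 1.27-fold and 1.34-fold, and NDUFAF3, the partner of NDUFAF4, was at 1.21-fold at both doses. Each of the 4 was on the same side of control at both doses, which share the control array. NDUFAF4 was more than 1.5-fold lower at the high dose in 14 of 14 settings of the processing.

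**Figure D3:**
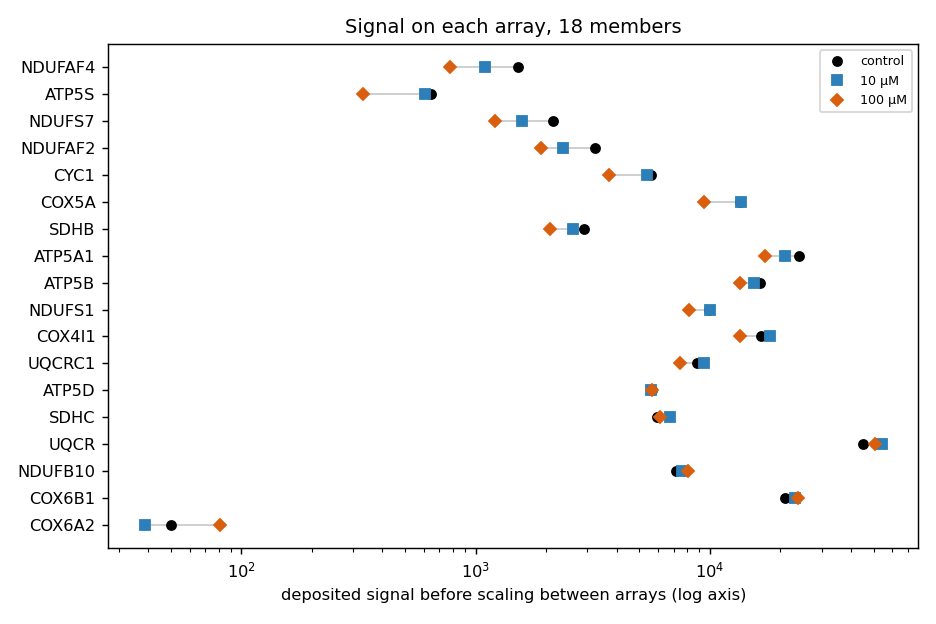
Deposited signal before scaling (horizontal log axis) of 18 members on the control, 10 μM and 100 μM arrays, with a grey line joining the lowest and highest of the 3. NDUFAF4, NDUFS7 and NDUFAF2 are lower at each dose in turn, ATP5S is low only at 100 μM, and COX6A2 lies far to the left of the others and highest at 100 μM.

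Complex II, the succinate dehydrogenase, has 4 subunits, and all were measured. SDHA, the flavin subunit that oxidizes succinate, was the highest of all measured members at the low dose. Its signals were 11840, 16440 and 11140, or 1.33-fold and 1.12-fold. All 4 SDHA probes gave log2 values between 0.377 and 0.412 at the low dose. SDHB, the iron-sulfur subunit, gave 2905, 2600 and 2071 (0.858-fold and 0.848-fold). SDHC, a membrane anchor, gave 5931, 6757 and 6116, or 1.09-fold and 1.23-fold. SDHD, the other anchor, gave 1406, 1303 and 1007, or 0.888-fold and 0.852-fold. The catalytic pair and the anchor pair each held 1 subunit above control and 1 below at both doses.

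Complex III was represented by 8 nuclear subunits, 4 of them lower and 4 higher than control at each dose. CYC1, cytochrome c1, was the lowest at the high dose, with signals of 5628, 5384 and 3708 and fold changes of 0.917 and 0.783. UQCR, one of the smallest subunits, was the highest at both doses, with 45200, 54080 and 50730, or 1.15-fold and 1.33-fold. UQCRQ and UQCRB, small subunits linked to ubiquinone binding, were at 1.18-fold and 1.16-fold at the high dose. Of the redox and core subunits, the Rieske protein UQCRFS1 gave 18380, 17540 and 14150, or 0.914-fold and 0.915-fold, and was the lowest of the complex at the low dose. UQCRC1 and UQCRC2, the core proteins, were at 1.01-fold and 0.877-fold at the high dose. UQCRH, the hinge protein next to cytochrome c1, was at 0.865-fold. The fold changes at the high dose thus ran from 0.783 to 1.33 within 1 complex whose subunits are present in equal numbers.

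Complex IV had the highest median of the 5 complexes at the high dose, a log2 fold change of 0.10 over 14 measured genes, compared with -0.053 at the low dose. COX6B1, which faces the intermembrane space, was the highest of its common subunits, with signals of 20840, 23010 and 23690 and fold changes of 1.06 and 1.35. COX5A, which lies on the matrix side, was the lowest, with 13400, 13540 and 9408, or 0.969-fold and 0.835-fold. COX8A gave 37680, 45980 and 32420, or 1.17-fold and 1.02-fold, the highest of the complex at the low dose, and COX7B was the lowest of the common subunits there at 0.879-fold. COX4I1, the largest nuclear subunit, gave 16580, 18030 and 13440, and stayed close to control (1.04-fold and 0.964-fold). COX6A1 and COX7A2, the forms used in most tissues, were at 1.04-fold and 1.13-fold at the high dose. COX7A2L, which joins complexes III and IV into supercomplexes, was at 0.923-fold and 0.835-fold. NDUFA4, named for complex I but now counted with complex IV as COXFA4, gave nearly equal unscaled signals of 52500, 52550 and 52070, or 0.959-fold and 1.18-fold after scaling.

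Of the 7 isoforms of complex IV subunits used mainly in muscle, lung, testis or low oxygen, 5 were not measured, 1 was dim and 1 (COX6B2) was bright. COX4I2, COX7A1, COX7B2, COX8C and NDUFA4L2 (now COXFA4L2), a gene known to be induced in low oxygen, were not well above background on all 3 arrays and had signals between 4.08 and 17.7. No fold change is read from them. COX6A2, the form found in heart and skeletal muscle, was measured at dim signals of 49.8, 38.7 and 80.8. It was 0.744-fold and 1.93-fold of control, and its low to high dose log2 ratio of -1.37 was the widest difference of any measured member. The spot-to-spot SD of its high-dose log2 value of 0.95 was 0.228, compared with a median of 0.073 over the members. COX6A2 passed 1.5-fold at the high dose in 14 of 14 settings, but with normexp background correction its log2 value was 0.596. COX6B2, the testis form, gave signals of 7956, 7885 and 7270 by its brightest probe. A dimmer probe of COX6B2 gave 61.5, 61.8 and 39.4, and their log2 values at the high dose were 0.120 and -0.392. Without the isoforms the members had no gene more than 1.5-fold higher in any comparison.

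Complex V showed the lowest median of the 5 complexes at the low dose. The median log2 fold change of its 15 subunits was -0.141, and 13 of the 15 were lower than control, compared with 54.5% of all genes. None was more than 1.5-fold lower. At the high dose the median was 0.011 and 7 of 15 were lower. In the F1 part, ATP5C1, the central stalk subunit gamma, gave 4522, 3571 and 3018, or 0.757-fold and 0.794-fold. The alpha subunit ATP5A1 (now ATP5F1A) gave 24070, 21010 and 17230, or 0.836-fold and 0.851-fold. ATP5B (now ATP5F1B), the catalytic beta subunit, gave 16300, 15420 and 13390, or 0.907-fold and 0.977-fold. All 5 F1 subunits were lower than control at the low dose, but at the high dose delta (ATP5D, 1.20-fold) and epsilon (ATP5E, 1.18-fold) were higher, and these are the small subunits at the foot of the central stalk. ATP5D kept an almost constant unscaled signal of 5647, 5626 and 5679, as did ATP5E with 98050, 99380 and 97560. Without scaling, therefore, both differed little between the 3 arrays. Their low-dose log2 values were -0.067 and -0.042, with spot-to-spot SDs of 0.067 and 0.066. Over the settings of the processing their high-dose values ran from -0.031 to 0.323 and from -0.188 to 0.314, so that the sign depended on the setting.

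In the membrane part, the 3 genes ATP5G1, ATP5G2 and ATP5G3 encode the same mature subunit c of the proton-driven ring and differ in their targeting sequences. ATP5G3 was the brightest member, with signals of 112000, 102900 and 94860. ATP5G2 gave 38470, 34270 and 27400, and ATP5G1 gave 13250, 11940 and 10030. At the low dose they were at 0.881-fold, 0.854-fold and 0.863-fold, which lie within the spot-to-spot error of each other. With the high dose they were at 1.01-fold, 0.847-fold and 0.900-fold. ATP5H (now ATP5PD), a subunit of the peripheral stalk, was the highest of complex V at the high dose, with 32010, 35240 and 32440, or 1.21-fold. ATP5L (now ATP5MG), a subunit of the membrane part, was the highest at the low dose, at 1.11-fold. ATP5L2, a retained copy of ATP5L, was at 1.07-fold and 1.08-fold, and because the 2 genes are much alike its probe may also report ATP5L RNA, which was not tested.

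ATP5S (now DMAC2L), once described as a coupling factor of the synthase, differed from the members around it. Its signals were 646.5, 609.1 and 330.2, or 0.903-fold and 0.607-fold, with a spot-to-spot SD of 0.092 for the high-dose log2 value of -0.72. A second probe gave 456.9, 408.3 and 229.9 and a log2 value of -0.741. On both probes the low-dose signal was close to control and the high-dose signal stood apart. Its low to high dose log2 ratio of 0.57 was the highest of any measured member. The relative ATP5SL (now DMAC2) and COX4NB (now EMC8, a membrane protein insertion factor unrelated to complex IV) were at 0.847-fold and 0.819-fold at the high dose. These 3 genes, which carry the prefix but do not encode subunits, were lower than control at both doses.

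**Figure D4:**
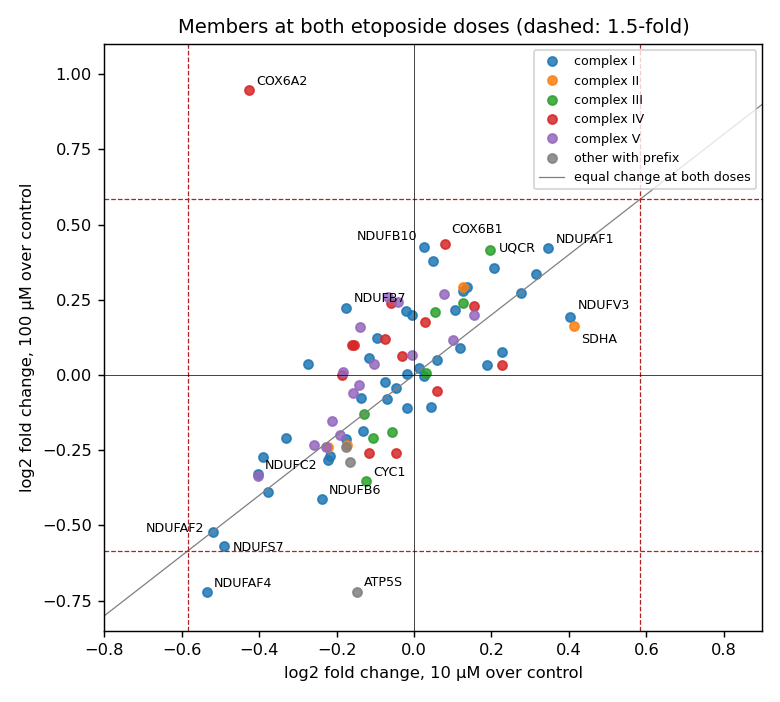
Log2 fold change over control at 100 μM (vertical axis) and at 10 μM (horizontal axis) for the 86 measured members, coloured by complex, with 15 members named. Both axes share the control array. COX6A2 stands alone at the upper left, ATP5S lies far below the line of equal change, and NDUFAF4, NDUFS7 and NDUFAF2 lie at the lower left near that line.

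For 16 members the array held more than 1 probe. In no comparison did the probes of 1 gene lie beyond 0.32 on the log2 scale in opposite directions. The widest difference was in ATP5E, whose brightest probe gave 98050, 99380 and 97560, while a probe to another listed transcript gave 63.3, 34.2 and 34.7, so that their log2 values were -0.042 and -0.949 at the low dose and 0.24 and -0.618 at the high dose. NDUFC2 was 0.796-fold by its brightest probe and had a log2 value of 0.026 by the other at the high dose, although both gave close values at the low dose (-0.404 and -0.395). The 3 probes of SDHC ran from -0.092 to 0.13 at the low dose and from 0.29 to 0.515 at the high dose. Smaller differences in sign were seen in ATP5J2, NDUFA10 and NDUFB8, at most 0.075 on the log2 scale between probes. COX6B2 was described with complex IV, and the other 9 genes had probes on the same side of control or only 1 measured probe.

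Some properties of the probes and genes moved with the fold changes, and their part in the results was not tested. Across the 86 members, the high-dose log2 fold change had a Pearson correlation of 0.259 with the GC content of the probe, compared with 0.185 over all measured genes. With the log2 length of the gene in RefSeq it was -0.403 over the members and -0.118 over 12788 genes, so that longer members were lower. With mean signal it was 0.208 over the members and -0.193 over all genes. These are correlations across genes within 3 arrays, and genes are not independent replicates.

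Other nuclear genes of mitochondria were taken from lists of textbook members. At the high dose, the log2 fold changes between the 25th and the 75th percentile spanned more than the members' 0.417 in the regulators of biogenesis (0.739) and the DNA maintenance genes (0.817), and less in the ribosomal proteins (0.392), the assembly factors (0.378), the TCA cycle (0.241) and the 3 genes of the cytochrome c list (0.171). The 77 mitochondrial ribosomal protein genes, which include the pseudogene MRPL42P5, had medians of -0.141 and -0.265 with the low and high dose. With the high dose 61 (79.2%) were lower than control, compared with 43.2% of all genes and 52% of bright genes. Such shares depend on the scaling between arrays. Of the 77, 8 (10.4%) were more than 1.5-fold lower, near the 9.49% of all genes and 10.9% of bright genes, and 1 (MRPS11, 1.52-fold) was higher. MRPL11 was the lowest, with 6751, 5391 and 2962, or 0.522-fold at the high dose. Among 16 genes of mitochondrial DNA maintenance and transcription the median was -0.266 at the high dose, and 5 (31.2%) were more than 1.5-fold lower. MTERFD1 was the lowest at 0.515-fold, and TFAM, which packages and transcribes mitochondrial DNA, gave 6543, 6795 and 3566, or 0.995-fold and 0.648-fold. RRM2B, the p53-induced subunit of ribonucleotide reductase that supplies nucleotides for mitochondrial DNA, went the other way, with 141.2, 450.3 and 227.6, or 3.06-fold and 1.92-fold. Both lists, and each of the other lists named above, lay below all genes at the high dose under each of 14 settings. Settings that differ only in a scaling by 1 factor per array cannot change this difference, so they add no support. The differences lay between -0.614 and -0.238 for the ribosomal proteins and between -0.616 and -0.237 for the DNA maintenance list. For the regulators they lay between -0.640 and -0.273, and for the TCA cycle between -0.418 and -0.061. Those of the assembly factors lay between -0.408 and -0.033, and those of the cytochrome c list between -0.487 and -0.092. For the members, the corresponding difference ran from -0.313 with no filter on dim probes and -0.135 with normexp, through -0.050 as reported, to 0.035 with quantile normalization and 0.067 with cyclic loess, so that its sign depended on the setting.

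Regulators of mitochondrial biogenesis had a median of -0.280 at the high dose over 15 measured genes, of which 4 were more than 1.5-fold lower and PPARA, a receptor that controls fatty acid oxidation, was higher (1.76-fold). PPARGC1A, the coactivator that induces respiratory genes, was the lowest of the list at the low dose, with 434.5, 227.6 and 300.9, or 0.502-fold and 0.824-fold. PPARGC1B was the lowest at the high dose at 0.571-fold, and GABPB1, a subunit of the ETS factor GABP, was at 0.591-fold there and 1.08-fold at the low dose. Thus 1 of these genes (6.67%) was more than 1.5-fold lower with low-dose and 4 (26.7%) with high-dose treatment, compared with 5.42% and 9.49% of all genes and with 0 and 2 of the 86 oxidative phosphorylation members. NRF1 itself was not well above background at the high dose (44.1, 42.7 and 26.2).

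Assembly factors outside the name rule were closer to the members, with medians of -0.115 and -0.047 at the 2 doses over 32 measured genes. SURF1, needed to build complex IV, was the highest at both doses, with 9432, 14490 and 13270, or 1.47-fold and 1.67-fold. LRPPRC, which stabilizes mitochondrial mRNAs, gave 6464, 6078 and 3008, or 0.553-fold at the high dose. TMEM126B and the dim LYRM7 (76.6, 65.1 and 37.3) were also more than 1.5-fold lower there. These 3 genes were 9.38% of the list, near the 9.49% of all genes. SURF1 alone was more than 1.5-fold higher (3.12%, compared with 15.2% of all genes). TMEM126A was the lowest at the low dose at 0.690-fold. None of the 18 measured genes of the TCA cycle and pyruvate oxidation was past 1.5-fold at the high dose, with a median of -0.101, and at the low dose only IDH2 was (1.65-fold). In that list DLD was the lowest at both doses, at 0.727-fold and 0.744-fold. Cytochrome c itself (CYCS) gave 2886, 3899 and 2779, or 1.29-fold and 1.15-fold, the enzyme that attaches its heme (HCCS) was at 0.903-fold at the high dose, and the ATPase inhibitor ATPIF1 was at 0.909-fold. The subunits encoded by mitochondrial DNA were not found under their symbols among the gene names of the array, and are not analysed here.

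**Figure D5:**
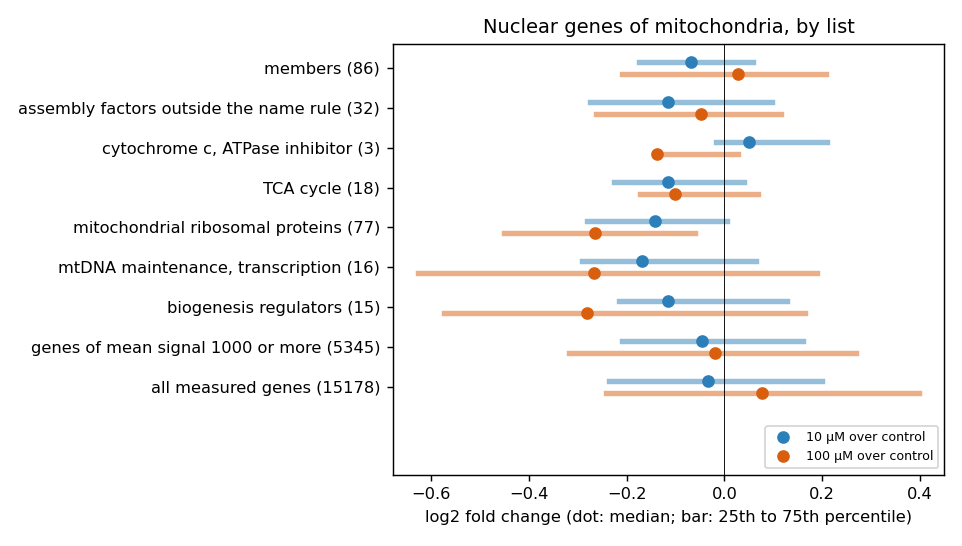
Median (dot) and 25th to 75th percentile (bar) of the log2 fold changes over control at 10 μM and 100 μM for the members, 6 other lists of nuclear genes of mitochondria, the bright genes and all measured genes, with the number of measured genes in brackets. At 100 μM the medians of the ribosomal protein, DNA maintenance and regulator lists lie between -0.280 and -0.265, and that of the members lies at 0.028.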

How the data were processed

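Total RNA of HepG2 cells, labeled with Cy3, was measured on 1-color Agilent arrays, 1 per condition, all on 1 slide. The authors deposited the intensity of each spot as Feature Extraction (version 10.7.3.1, per the labels) gave it, with the background subtracted and spatial trends of the array removed, and a series table whose intensity values, checked spot by spot, were equal to these for all 44495 spots of each array. No scaling between arrays had thus been applied. Probe positions in the files are on hg18.

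From the deposited intensity, log2 values were averaged over the spots of each probe without outlier spots and scaled to the 75th percentile of each array over probes counted once. A gene was represented by its brightest probe and counted as measured when well above background on all 3 arrays. Calls are fold changes past 1.5-fold, with no test, since each condition has 1 array. The spot-to-spot SD came from the 50 repeated probes nearest in signal. Precision is limited by the number of arrays. The members and gene lists were chosen with earlier results of these data known. Named genes are the highest and lowest of each complex, role or list, those past 1.5-fold, whole subunit families, dim members and members with discordant probes. A few genes that meet this rule are not reported here. COX6B2, ATP5D and NDUFA3, and other genes given as examples beside these, were chosen after their values were seen. Bright genes (mean signal of 1000 or more) were added as a background after the data were seen. All members were matched to current symbols by accession in RefSeq (GRCh38.p14), and 22 had been renamed. The steps were tested on simulated data. Alternatives were other scalings, normexp background correction (offset 50), other filters, probe rules and thresholds. Python 3.11.15, pandas 2.3.3, numpy 2.4.6, R 4.3.3 and limma 3.58.1 were used.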

Additional observations from a re-analysis of the deposited data

How the results depend on the processing

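No paired analysis was possible because the 3 conditions had a single array each, and for the same reason no replicate could be left out. Of the alternatives, scaling between arrays mattered most at the high dose. The median log2 fold change of all measured members at the high dose over control was -0.222 without scaling, -0.261 with median scaling and -0.143 with spike-in scaling, against 0.028 as reported. For the low over the high dose it was 0.263, 0.219, 0.178 and, with the 75th percentile over all spots, -0.122, against -0.048. Members more than 1.5-fold lower at the high dose then numbered 7, 9 and 4 in place of 2, and for the low over the high dose 1 member was higher without scaling, with median scaling, with cyclic loess and with spike-in scaling, in place of 0. The shares of all genes past 1.5-fold were not counted under these settings. The calls of NDUFAF4, ATP5S and COX6A2 at the high dose held in each of 14 settings.

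Medians of complexes I, II, III, IV and V relative to all genes do not depend on scaling by 1 factor per array. The median of bright genes was itself at -0.098 relative to all genes at the high dose over control. For the low over the high dose it was at 0.098, and for the low dose over control at -0.011. At the high dose over control the complexes were at -0.055, -0.113, -0.138, 0.022 and -0.067 as reported, 0.034, -0.015, -0.033, 0.129 and 0.012 with quantile normalization, 0.052, -0.009, -0.020, 0.149 and 0.069 with cyclic loess, and -0.326, -0.384, -0.409, -0.175 and -0.339 with no filter on dim probes. With normexp those of II to V were -0.189, -0.254, -0.065 and -0.157. For the low over the high dose, complexes I to V were at 0.071, 0.130, 0.103, -0.075 and -0.005 as reported, at -0.051, 0.041, -0.015, -0.199 and -0.128 with cyclic loess and at 0.247, 0.306, 0.279, 0.014 and 0.171 with no filter. Quantile normalization gave 0.045, 0.017 and -0.082 for II, III and V, and normexp 0.235 and 0.189 for II and III. At the low dose over control they were at 0.012, 0.012, 0.022, -0.018 and -0.107 as reported and at -0.088, -0.088, -0.078, -0.096 and -0.207 with no filter, where the median of all genes itself moved by 0.10. Causes of these differences were not tested.

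With no filter on dim probes, 3 members were more than 1.5-fold higher at the high dose and 3 were lower for the low over the high dose, the added ones being COX4I2 and COX7A1. At the looser threshold of 0.32 on the log2 scale, 3 members were higher and 9 lower at the low dose, 8 higher and 9 lower at the high dose, and 1 higher and 6 lower for the low over the high dose. At 2-fold there were 0 higher and 0 lower at the high dose. Without the tissue isoforms, a choice made after seeing the data, there were 0 higher at the high dose and 0 lower for the low over the high dose. The other 283 medians and counts under an alternative did not move by more than the median spot-to-spot SD or, for counts, 1.5 times. Single genes were labeled in this way only for NDUFAF4, ATP5S and COX6A2. Of their values, 20 moved by more than their spot-to-spot SD, and none that was past 1.5-fold changed direction. Other members did change sign between settings at the high dose. For example, SDHA ran from -0.127 to 0.227 and UQCRB from -0.080 to 0.274 on the log2 scale.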
